A study of Homo sapiens with 12 samples.

Results

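The enzymes that turn acetyl-CoA into mevalonate and mevalonate into squalene oxide were followed as 9 genes (ACAT2, HMGCS1, MVK, PMVK, MVD, IDI1, FDPS, FDFT1 and SQLE) in RNA-Seq of HCT116 cells, a human colorectal carcinoma line. The 9 genes were selected by symbol out of the 19901 protein-coding genes of the count table, and all 9 were among the 13093 genes with enough counts to be tested. They were put forward as a group with the results of every comparison given here already known, so each fold change, count of calls and p-value of these genes is a description of the 12 libraries and not independent support for the group. KAP1, a transcriptional cofactor encoded by TRIM28, carries a degradation tag in these cells (genotype KAP1_dTAG, clone D5), and the ligand dTAG sends the tagged protein to the proteasome. All cells spent 48 h in medium without serum and received dTAG or its solvent DMSO for the last 8 h, then serum for 30 min or none. The 4 groups, of 3 libraries each, are called by solvent or ligand and by serum (S0, none given; S30, given for 30 min): DMSO-S0 and dTAG-S0, then DMSO-S30 and dTAG-S30. All 12 libraries come from 1 clone and none from untagged cells given dTAG, so an effect of the ligand and an effect of KAP1 loss cannot be told apart. The study's methods call the 3 libraries of a group biological replicates, and the labels do not say whether they came from separate cultures, so the p-values measure the spread between these libraries, which may be technical.

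Cholesterol is built from acetyl-CoA in a long chain of reactions, and the first stretch of it, which ends at squalene, also supplies the isoprenoid units used for protein prenylation, ubiquinone and dolichol. In cells short of sterol, the sterol regulatory element-binding proteins (SREBPs) move from the endoplasmic reticulum to the Golgi, are cut there, and enter the nucleus, where they bind promoters of this pathway together with the cofactors NF-Y and Sp1. Serum brings lipoproteins, the main outside source of cholesterol, and cultured cells kept without it rely on their own synthesis.

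Total counts ran from 20537682 to 26278707 per library, with 7.97% to 9.37% in ERCC spike-in RNA and 7.18% to 9.04% of gene counts from mitochondrial genes. Replicates had a Spearman's rho of 0.996 to 0.998 across genes and differed by 3.04 to 9.88 times the chi-square per degree of freedom of counting noise, so none was a duplicate of another. TRIM28 itself was not called (past an adjusted p of 0.05 in edgeR, a count model fitted to all genes) with dTAG (log2 fold change -0.06 without serum and -0.04 with serum, edgeR adjusted p = 0.789 and 0.888), which measures the transcript and not the protein that the tag removes. Of 5 epithelial markers, EPCAM, CDH1, KRT8, KRT18 and KRT19, the summed level was 1140 to 1190 CPM (read counts scaled to the size of each library) in DMSO-S0, 1310 to 1400 in DMSO-S30, 1170 to 1310 in dTAG-S0 and 1370 to 1560 in dTAG-S30, and none was called with dTAG by edgeR, with 1 without serum and 2 with serum at an unadjusted p under 0.05 and 0 and 1 called by DESeq2. The 9 genes were well covered, from PMVK with 253 to 397 counts per library to FDFT1 with 4996 to 9215 and HMGCS1 with 3967 to 9418.

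ACAT2 (ENSG00000120437.8, chr6:159760328-159779055, plus strand, coordinates in hg38 throughout) encodes the cytosolic thiolase that joins acetyl-CoA units into acetoacetyl-CoA. HMGCS1 (ENSG00000112972.14, chr5:43289395-43313512, minus strand) encodes the cytosolic synthase that makes hydroxymethylglutaryl-CoA from it. Further along, MVK (ENSG00000110921.13, chr12:109573255-109598117, plus strand) and PMVK (ENSG00000163344.5, chr1:154924734-154936991, minus strand) encode the kinases that phosphorylate mevalonate in turn. MVD (ENSG00000167508.11, chr16:88651935-88663161, minus strand) encodes the decarboxylase that yields isopentenyl diphosphate, and IDI1 (ENSG00000067064.11, chr10:1039152-1049170, minus strand) encodes the isomerase that turns this unit into dimethylallyl diphosphate. FDPS (ENSG00000160752.14, chr1:155308748-155320666, plus strand) encodes farnesyl diphosphate synthase, whose product is the branch point between sterols and other isoprenoids.

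Promoter stretches are printed here because 5 of the 6 genes shown were called higher with dTAG at both serum levels, while PMVK was not, and because factors of the sterol response bind close to the start of these genes. RefSeq promoter windows (GRCh38.p14) were held for 6 of the 9 genes, and those of ACAT2, FDFT1 and SQLE were not used here. Each stretch lies within the 250 bases before a RefSeq transcript start and reads 5′ to 3′ on the strand of the gene. Bases that GENCODE v44 places in an exon are left out. By the gene bounds of the count table, the PMVK and MVK stretches lie within the gene, downstream of its outermost start, and that of IDI1 partly does. Capitals mark CCAAT on either strand, the core letters bound by NF-Y, and CACNCCA on either strand, letters found in sterol regulatory elements. The stretches come from chr5:43313513-43313662 (HMGCS1), chr12:109573581-109573792 (MVK), chr1:154936720-154936969 (PMVK), chr16:88663162-88663297 (MVD), chr10:1049120-1049369 (IDI1, 1 of 3 windows) and chr1:155308616-155308747 (FDPS).
HMGCS1: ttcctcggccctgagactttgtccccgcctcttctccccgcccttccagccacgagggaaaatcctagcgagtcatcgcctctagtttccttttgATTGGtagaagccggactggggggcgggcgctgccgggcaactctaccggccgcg
MVK: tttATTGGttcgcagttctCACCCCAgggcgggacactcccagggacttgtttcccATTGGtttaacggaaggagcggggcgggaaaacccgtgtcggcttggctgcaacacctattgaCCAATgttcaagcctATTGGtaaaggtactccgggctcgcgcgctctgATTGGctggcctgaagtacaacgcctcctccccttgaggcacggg
PMVK: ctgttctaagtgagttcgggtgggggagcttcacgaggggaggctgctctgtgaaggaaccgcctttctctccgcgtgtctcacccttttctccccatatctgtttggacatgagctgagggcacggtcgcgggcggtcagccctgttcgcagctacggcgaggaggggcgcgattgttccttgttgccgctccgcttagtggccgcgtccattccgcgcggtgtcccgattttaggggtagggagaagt
MVD: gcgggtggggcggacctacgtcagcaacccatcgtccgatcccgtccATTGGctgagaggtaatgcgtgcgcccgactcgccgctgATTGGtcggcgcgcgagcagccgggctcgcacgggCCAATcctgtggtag
IDI1: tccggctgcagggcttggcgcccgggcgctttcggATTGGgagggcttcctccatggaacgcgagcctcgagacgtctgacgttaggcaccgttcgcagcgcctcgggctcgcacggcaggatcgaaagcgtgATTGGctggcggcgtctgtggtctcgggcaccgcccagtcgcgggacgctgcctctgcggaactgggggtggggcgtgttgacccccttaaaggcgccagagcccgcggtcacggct
FDPS: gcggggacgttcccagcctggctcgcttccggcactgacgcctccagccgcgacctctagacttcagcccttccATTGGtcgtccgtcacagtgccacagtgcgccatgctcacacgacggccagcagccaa

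CCAAT occurred in at least 1 whole window of 250 bases for 5 of the 6 genes, against 32.0% of 35116 windows of this length in the table. PMVK was the gene without it, and its window lies within the gene by the bounds of the count table. MVK had 5 copies in its window and MVD 3, all within the stretches printed. FDPS had 3 and HMGCS1 2 in the whole window, of which the stretch printed holds 1 in each gene, since the others reach into or lie in the bases left out. CACNCCA occurred for MVK, MVD and IDI1, against 14.7% of all windows. In MVD and IDI1 it fell outside the stretch printed, and in MVK it is the CACCCCA near the start of the stretch. The GC box letters CCGCCC, which Sp1 binds, occurred for all 6 genes, against 42.6% of all windows. HMGCS1 and IDI1 have several windows, and a gene with more windows has more chances to hold a motif. These are matches of letters and not tests of binding. Whether any motif goes with the dTAG calls was not tested, and PMVK is the only gene shown that was not called with dTAG. The only overlapping matches were a pair of CCAAT on opposite strands in an IDI1 window that is not printed.

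Most of these enzymes were higher after 8 h of dTAG. Without serum (dTAG-S0 against DMSO-S0), 7 of the 9 genes were called higher at an edgeR adjusted p under 0.05 and 0 lower, where 0.848% of all 13093 genes tested were called higher. With serum (dTAG-S30 against DMSO-S30), the same 7 genes were called higher and 0 lower, where 0.588% of all genes were. These 7 were ACAT2, HMGCS1, MVK, MVD, IDI1, FDPS and FDFT1, and 0.435% of all genes were called higher at both serum levels. The rises were moderate, between 1.22-fold for FDPS and 1.65-fold for MVD without serum, and between 1.26-fold for FDPS and 1.51-fold for MVD with serum. The median log2 fold change of the 9 genes was 0.51 without serum and 0.43 with serum, while that of all genes tested was -0.01 and 0.00. Toward lower levels, 0 of the 9 had an unadjusted p under 0.05 without serum and 1 with serum, which was PMVK, and DESeq2 called 0. In bulk RNA, fewer cells that express a gene and less RNA per cell cannot be told apart.

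**Figure D1:**
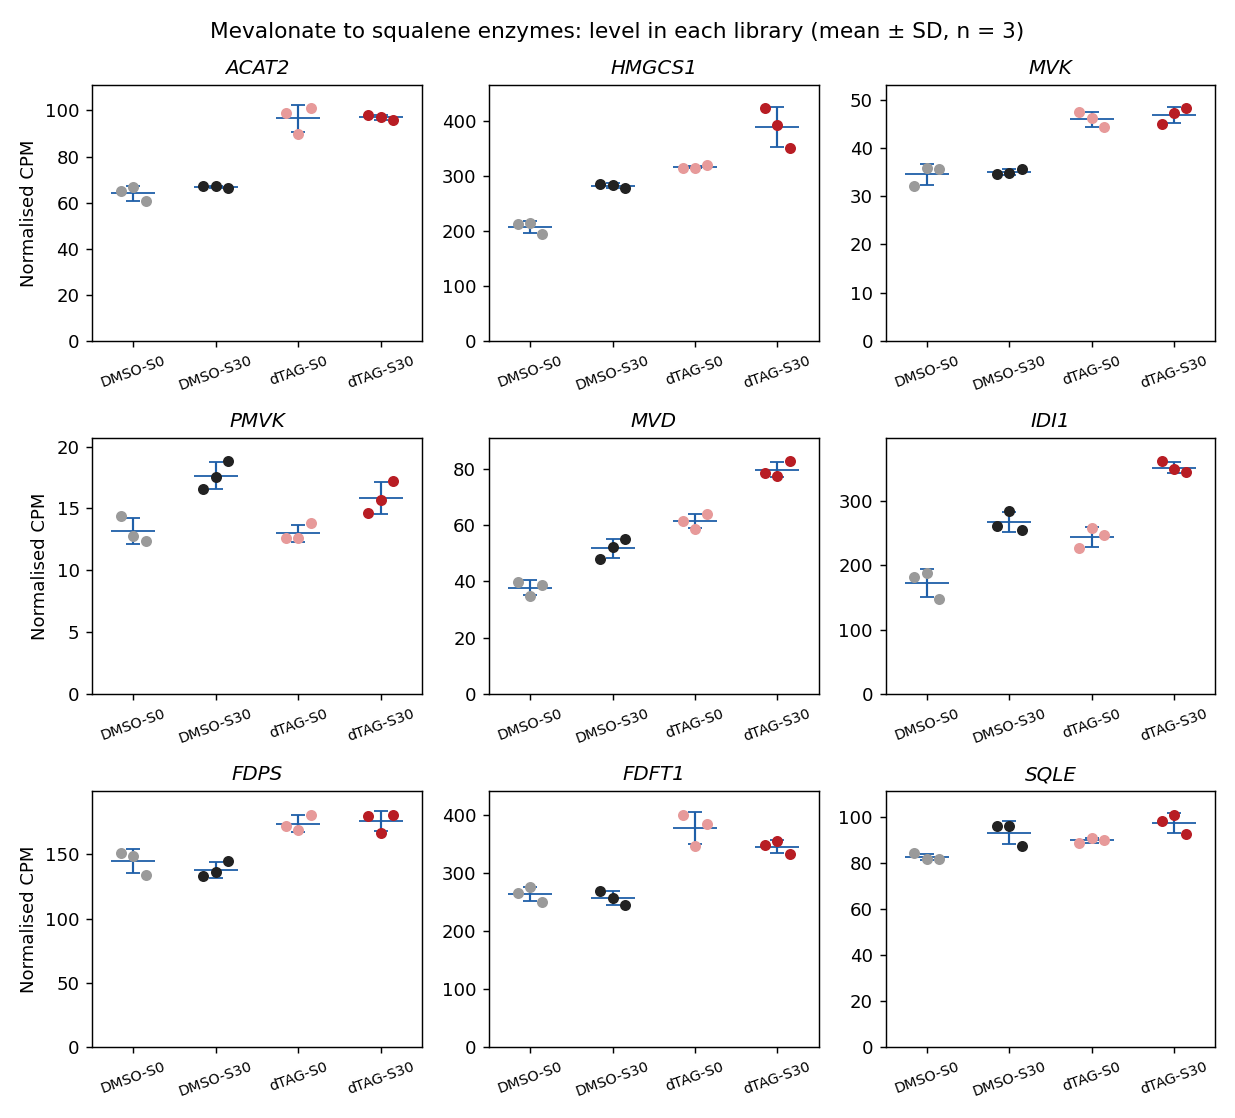
Normalised level in CPM (vertical axis, from 0, with its own scale for each gene) of each of the 9 enzyme genes in the 12 libraries. Points are libraries, and blue bars give the mean ± SD of the 3 libraries of a group. For ACAT2, HMGCS1, MVK, MVD, FDPS and FDFT1 the 6 dTAG libraries all sit above the 6 DMSO libraries, in IDI1 the DMSO-S30 and dTAG-S0 libraries overlap, and in PMVK the higher groups are those with serum.

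ACAT2 stood at 65.2, 66.6 and 60.5 CPM in DMSO-S0, at 67.2, 67.1 and 66.3 in DMSO-S30, at 98.7, 90.0 and 101 in dTAG-S0, and at 98.0, 97.2 and 96.0 in dTAG-S30 (replicates 1 to 3). The 6 dTAG libraries all lay above the 6 DMSO libraries, and the libraries with and without serum overlapped within each treatment. With dTAG it rose by 0.59 on the log2 scale without serum (SE 0.0610, edgeR adjusted p = 7.73e-07) and 0.54 with serum (SE 0.0617, edgeR adjusted p = 6.59e-06). With serum it moved by 0.06 in DMSO-treated cells (95% interval -0.07 to 0.19) and by 0.00 in dTAG-treated cells (-0.12 to 0.13), and was called in neither. ACAT2 overlaps TCP1 by 558 bp and ENSG00000285441.1 by 2202 bp on the other strand, and whether reads were assigned by strand is not given in the sources used here.

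HMGCS1 was measured at 212, 214 and 195 CPM in DMSO-S0, 286, 283 and 278 in DMSO-S30, 315, 315 and 319 in dTAG-S0, and 423, 393 and 350 in dTAG-S30. Its 4 groups did not overlap, and serum and dTAG each raised the level, dTAG-S0 standing above DMSO-S30. With dTAG it rose 1.52-fold without serum (log2 0.61, SE 0.0648, edgeR adjusted p = 1.35e-06) and 1.38-fold with serum (log2 0.47, SE 0.0647, edgeR adjusted p = 9.11e-05). With serum it rose by 0.44 on the log2 scale in DMSO-treated cells (edgeR adjusted p = 1.23e-05) and by 0.30 in dTAG-treated cells (edgeR adjusted p = 0.000895). From DMSO-S0 to dTAG-S30 the mean went from 207 ± 10.8 to 389 ± 36.8 CPM (SD, n = 3), a ratio of 1.88.

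MVK, the first of the mevalonate kinases, was at 32.1, 35.9 and 35.6 CPM in DMSO-S0, 34.7, 34.8 and 35.7 in DMSO-S30, 47.5, 46.2 and 44.3 in dTAG-S0, and 45.1, 47.2 and 48.3 in dTAG-S30. Every dTAG library exceeded every DMSO library, and serum left the groups of each treatment overlapping. With dTAG it rose by 0.40 on the log2 scale without serum (SE 0.0671, edgeR adjusted p = 0.00104) and 0.43 with serum (SE 0.0682, edgeR adjusted p = 0.000433). MMAB overlaps MVK by 620 bp on the other strand.

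PMVK, the next kinase, was called with serum and not with dTAG. It was at 14.4, 12.8 and 12.4 CPM in DMSO-S0, 16.6, 17.5 and 18.8 in DMSO-S30, 12.6, 12.6 and 13.8 in dTAG-S0, and 14.6, 15.7 and 17.2 in dTAG-S30. The treatments overlapped at both serum levels, and at each treatment the libraries with serum lay above those without. With dTAG its log2 fold change was 0.02 without serum (95% interval -0.17 to 0.21) and -0.21 with serum (-0.39 to -0.02, edgeR adjusted p = 0.386), so it was called in neither comparison. With serum it rose 1.39-fold in DMSO-treated cells (log2 0.47, SE 0.0929, edgeR adjusted p = 0.000404). In dTAG-treated cells the log2 value of 0.25 was just past the threshold (SE 0.0907, edgeR adjusted p = 0.0468), and this call was lost without DMSO-S30 replicate 3, dTAG-S0 replicate 2 or any 1 of the 3 dTAG-S30 replicates (edgeR adjusted p = 0.0596, 0.136, 0.0513, 0.0810 and 0.0609).

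MVD, the decarboxylase, had the largest rise with dTAG among the 9 genes at both serum levels. Its values were 39.8, 34.8 and 38.7 CPM in DMSO-S0, 48.1, 52.1 and 55.0 in DMSO-S30, 61.5, 58.8 and 64.0 in dTAG-S0, and 78.7, 77.6 and 82.7 in dTAG-S30. No group overlapped another. With dTAG the log2 fold change was 0.72 without serum (SE 0.0670, edgeR adjusted p = 1.17e-07) and 0.59 with serum (SE 0.0658, edgeR adjusted p = 3.98e-06), which ranked 51 and 99 from the top among the fold changes of 13093 genes. Serum raised it 1.40-fold in DMSO-treated cells (edgeR adjusted p = 5.41e-06) and 1.28-fold in dTAG-treated cells (edgeR adjusted p = 0.000160). The mean in dTAG-S30, 79.7 ± 2.71 CPM, was 2.11 times the 37.8 ± 2.61 CPM of DMSO-S0 (SD, n = 3).

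IDI1, the isomerase, had the largest rise with serum. It was at 182, 188 and 147 CPM in DMSO-S0, 260, 284 and 255 in DMSO-S30, 227, 257 and 246 in dTAG-S0, and 361, 349 and 344 in dTAG-S30. DMSO-S30 and dTAG-S0 overlapped each other, and both lay above DMSO-S0 and below dTAG-S30. The log2 fold change with serum was 0.66 in DMSO-treated cells (SE 0.0738, edgeR adjusted p = 9.43e-08) and 0.51 in dTAG-treated cells (SE 0.0709, edgeR adjusted p = 3.97e-06). With dTAG it was 0.52 in starved cells (edgeR adjusted p = 8.93e-05) and 0.37 after serum (edgeR adjusted p = 0.00518), and the latter call was lost without DMSO-S30 replicate 3 (log2 0.33, edgeR adjusted p = 0.0623). DMSO-S0 replicate 3 was the lowest library of IDI1, and the group's mean was 172 ± 22.3 CPM (SD, n = 3).

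FDPS, at the branch point, was at 151, 149 and 134 CPM in DMSO-S0, 133, 136 and 145 in DMSO-S30, 172, 169 and 181 in dTAG-S0, and 180, 167 and 181 in dTAG-S30. The 6 dTAG libraries lay above the 6 DMSO libraries. With dTAG the log2 rise was 0.28 without serum (SE 0.0588, edgeR adjusted p = 0.0105) and 0.33 with serum (SE 0.0597, edgeR adjusted p = 0.00250). The call without serum was lost with library sizes taken from the ERCC total (log2 0.30, edgeR adjusted p = 0.0972) and without dTAG-S0 replicate 3 (log2 0.25, edgeR adjusted p = 0.0662). FDPS has processed pseudogenes of near-identical sequence, and how reads with several matches were counted is not given in the sources used here, so its values are uncertain.

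FDFT1 (ENSG00000079459.12, chr8:11795573-11839309, plus strand) encodes squalene synthase, the first enzyme given over to sterols alone. It was at 265, 275 and 250 CPM in DMSO-S0, 268, 256 and 244 in DMSO-S30, 400, 346 and 384 in dTAG-S0, and 348, 355 and 332 in dTAG-S30. Every dTAG library again exceeded every DMSO library. With dTAG the log2 rise was 0.51 without serum (SE 0.0632, edgeR adjusted p = 2.01e-05) and 0.44 with serum (SE 0.0640, edgeR adjusted p = 0.000167). With serum its log2 values were -0.05 and -0.12 in DMSO-treated and dTAG-treated cells, neither called, although the second passed as a fall when dTAG-S0 replicate 2 was left out (log2 -0.18, edgeR adjusted p = 0.0479).

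SQLE (ENSG00000104549.11, chr8:124998497-125022283, plus strand) encodes squalene epoxidase, a further control point of the chain. It was at 84.2, 81.7 and 81.8 CPM in DMSO-S0, 96.0, 96.0 and 87.3 in DMSO-S30, 88.7, 90.8 and 89.8 in dTAG-S0, and 98.1, 101 and 92.5 in dTAG-S30. The dTAG-S0 libraries lay above the DMSO-S0 libraries by a few CPM, and the treatments overlapped with serum. With dTAG its log2 fold change was 0.12 without serum (95% interval 0.00 to 0.24, edgeR adjusted p = 0.434) and 0.06 with serum (-0.06 to 0.18, edgeR adjusted p = 0.790), and neither was called. Both intervals end below those of MVD at the same serum level, which run from 0.59 to 0.86 without serum and from 0.46 to 0.73 with serum. The rise with serum was 1.13-fold in DMSO-treated cells (log2 0.17, edgeR adjusted p = 0.0344), a call lost without DMSO-S0 replicate 2, DMSO-S0 replicate 3, DMSO-S30 replicate 1 or DMSO-S30 replicate 2 (edgeR adjusted p = 0.0574, 0.0745, 0.0727 and 0.148). In dTAG-treated cells SQLE was at log2 0.11 (edgeR adjusted p = 0.164), and it was called under TMM scaling (log2 0.17, edgeR adjusted p = 0.0375) and by DESeq2 (log2 0.16, adjusted p = 0.0274).

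Set by libraries that did not overlap, 8 of the 9 genes had all 3 dTAG-S0 libraries above all 3 DMSO-S0 libraries, where 8.50% of all genes did, and PMVK was the exception. With serum 7 of the 9 did, where 7.62% of all genes did, and PMVK and SQLE were the exceptions.

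The serum comparisons asked which of these genes respond within 30 min. In DMSO-treated cells 5 of the 9 genes were called higher (HMGCS1, PMVK, MVD, IDI1 and SQLE) and 0 lower, as by DESeq2 and at an unadjusted p under 0.05, where 9.15% of all genes were called higher. In dTAG-treated cells 4 were called higher (HMGCS1, PMVK, MVD and IDI1) and 0 lower, against 5 and 0 by DESeq2, where 9.04% of all genes were. In each treatment those 5 genes had all 3 libraries with serum above all 3 without, as did 13.8% of all genes in DMSO-treated and 12.6% in dTAG-treated cells. The median log2 fold change of the 9 genes with serum was 0.17 and 0.11, beside -0.07 and -0.06 over all genes tested. Scaling set the direction of many serum calls over all genes: 35.0% of 3420 calls in DMSO-treated cells were higher here, against 61.5% under TMM scaling (trimmed means in place of the upper quartile), 66.5% with ERCC library sizes and 58.5% by DESeq2. In dTAG-treated cells the shares were 37.2%, 61.8%, 62.5% and 59.0%. HMGCS1, PMVK, MVD and IDI1 were called higher with serum in both treatments under each of these scalings. FDPS and FDFT1, at log2 -0.04 and -0.05 with serum in DMSO-treated cells, changed sign between scalings and were called under none of them. Of the 5 epithelial markers, 4 (CDH1, KRT8, KRT18 and KRT19) were also called higher with serum in each treatment, with a median log2 fold change over the 5 of 0.30 in both, and their part in the serum values of the enzymes was not tested. Of 7 markers of other cell types, COL1A1 rose with serum by 2.48 and 2.47 on the log2 scale (edgeR adjusted p = 3.37e-18 and 2.42e-18), and the summed level of the 7 was 20.3 to 21.5 CPM in DMSO-S0, 85.5 to 92.2 in DMSO-S30, 18.5 to 20.6 in dTAG-S0 and 71.8 to 83.9 in dTAG-S30. COL1A2 had at most 1 count in any library, and CD3E and PECAM1 were also too low to be tested, while PTPRC, VWF and CD68 were not called in any comparison.

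**Figure D2:**
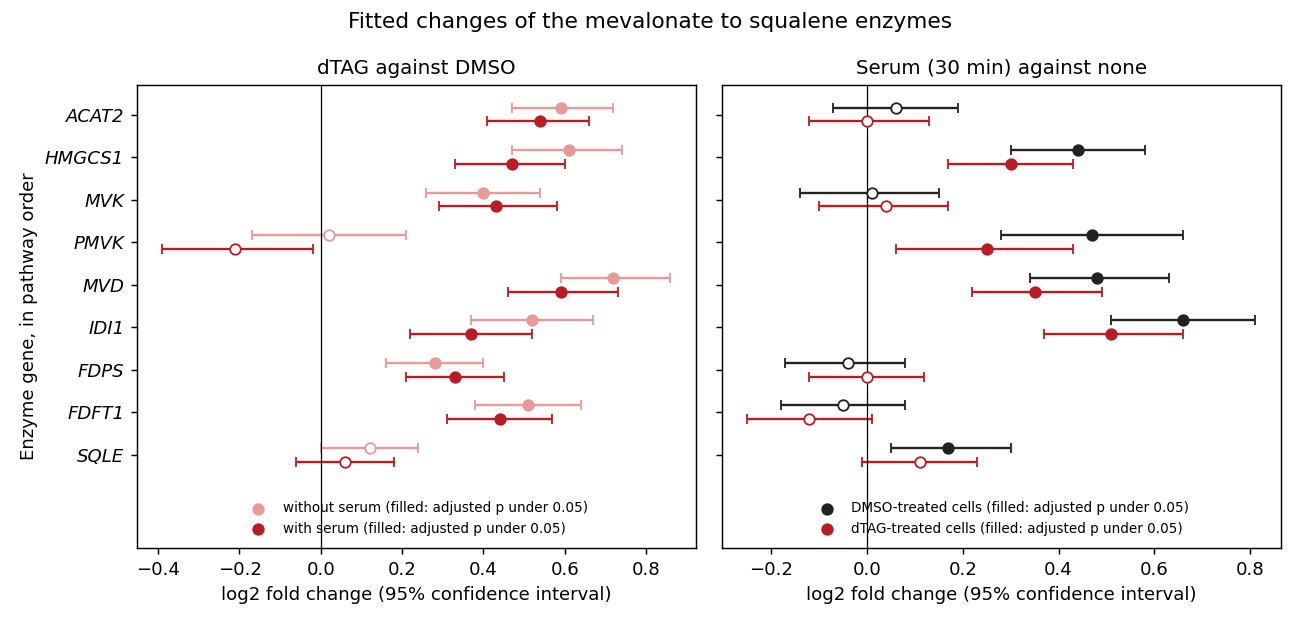
Fitted log2 fold change of each enzyme gene, in pathway order, for dTAG against DMSO (left) and 30 min of serum against none (right). Points are fitted values, bars are 95% confidence intervals and filled points have an edgeR adjusted p under 0.05. MVD is highest for dTAG at 0.72 and 0.59, PMVK and SQLE are open there, and ACAT2, MVK, FDPS and FDFT1 lie near 0 for serum.

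By these calls the chain fell into 4 kinds of gene. HMGCS1, MVD and IDI1 were called higher in all 4 comparisons. ACAT2, MVK, FDPS and FDFT1 were called with dTAG at both serum levels and with serum in neither treatment. PMVK was called with serum in both treatments and with dTAG at neither serum level, and SQLE was called with serum in DMSO-treated cells. Whether the genes differ from each other in their response was not tested, and the serum comparison in DMSO-treated cells shares its DMSO-S0 libraries with the dTAG comparison without serum.

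The interaction asked whether serum acted differently after dTAG. Of the 9 genes 0 were called by edgeR, 0 had an unadjusted p under 0.05 and 0 were called by DESeq2, where edgeR called 0.0382% of all genes, 5 in number. Fitted values ran from -0.22 for PMVK (95% interval -0.50 to 0.05) to 0.05 for FDPS (-0.13 to 0.22), and all 9 intervals held 0. For HMGCS1, MVD and IDI1, the genes called in every other comparison, the interaction was -0.14 (-0.33 to 0.05), -0.13 (-0.33 to 0.07) and -0.15 (-0.36 to 0.07).

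Summed over the 9 genes, which weights the abundant HMGCS1, IDI1 and FDFT1 most, the level was 1046, 1057 and 955 CPM in DMSO-S0 and 1210, 1227 and 1185 in DMSO-S30. It was 1423, 1386 and 1443 CPM in dTAG-S0 and 1645, 1603 and 1543 in dTAG-S30. The 4 groups did not overlap, and their means were 1019 ± 56.0, 1208 ± 21.1, 1417 ± 28.9 and 1597 ± 51.3 CPM (SD, n = 3). ACAT2, HMGCS1, MVK and MVD shared the order dTAG-S30, dTAG-S0, DMSO-S30, DMSO-S0 of group means. In ACAT2 and MVK the neighbours that differ only in serum did not differ beyond their spread, while in HMGCS1 and MVD each neighbour stood clear of the next. IDI1 and SQLE had DMSO-S30 above dTAG-S0, with overlapping libraries in both genes. In FDFT1 the highest group was dTAG-S0 and in PMVK it was DMSO-S30.

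When the log2 levels were standardised, so that each gene counts equally, the mean of the 9 genes was -1.33 to -0.93 SD in the DMSO-S0 libraries, -0.29 to -0.20 in DMSO-S30, 0.26 to 0.50 in dTAG-S0 and 0.93 to 0.99 in dTAG-S30. Over the 12 libraries, which share their groups and scaling, Pearson's r of each gene with the mean of the other 8 was 0.97 for HMGCS1 and MVD, 0.88 for ACAT2, 0.87 for IDI1, 0.82 for MVK, 0.74 for FDPS, 0.72 for SQLE and 0.71 for FDFT1. PMVK had an r of 0.11. The 5 other genes with the highest r to this mean pattern were EBP (0.96), FADS1 (0.95), XBP1 (0.95), ACSL3 (0.95) and HSD17B7 (0.94). EBP and HSD17B7 encode enzymes of the later sterol steps, FADS1 a fatty acid desaturase, ACSL3 a ligase that activates fatty acids, and XBP1 a transcription factor of the unfolded protein response. XBP1 was at log2 0.39 with dTAG without serum and 0.26 with serum (edgeR adjusted p = 0.00439 and 0.109).

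**Figure D3:**
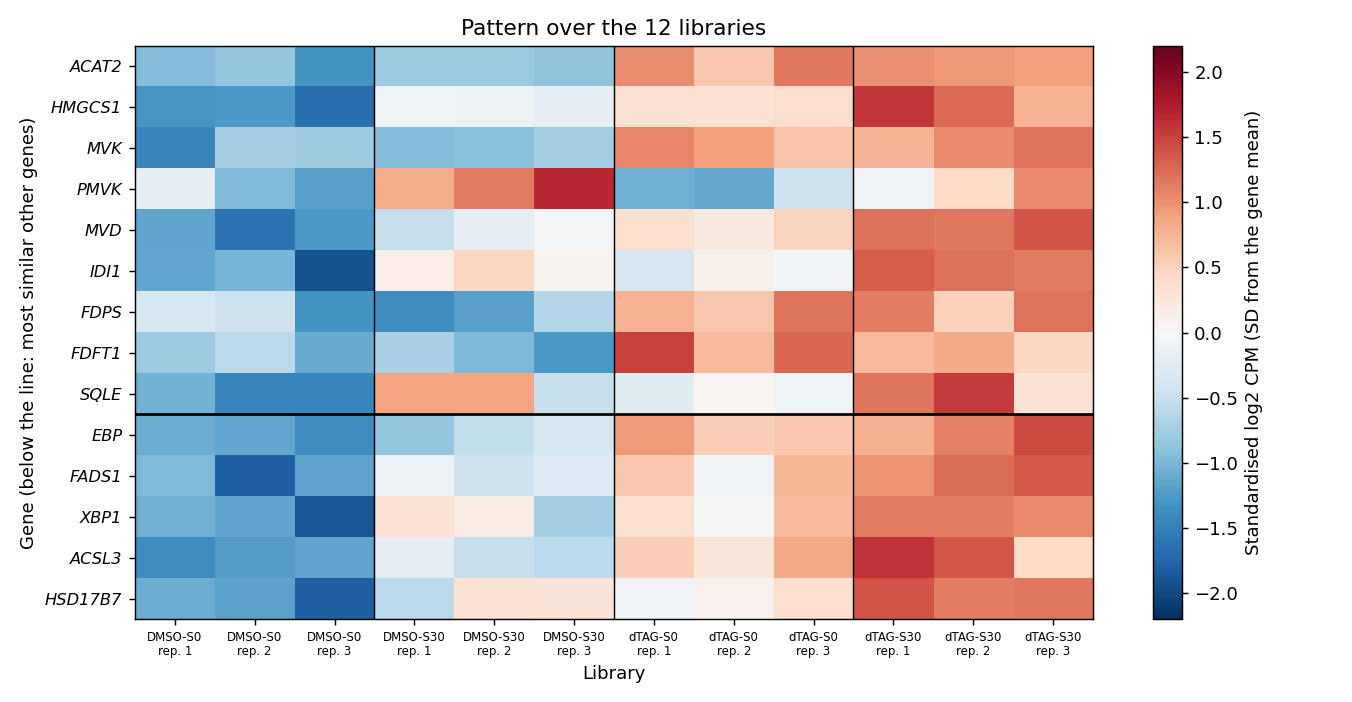
Standardised log2 CPM (colour, in SD from the mean of the gene over 12 libraries) of the 9 enzyme genes and, below the line, the 5 other genes with the most similar pattern, for each library. Most rows go from blue in DMSO-S0 to red in dTAG-S30, and PMVK is high in the groups with serum.

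The later steps lead from lanosterol to cholesterol and are also controlled by SREBPs. Of 10 genes tested in that stretch, 8 were called higher with dTAG without serum and 7 with serum, and 0 lower, with medians of 0.46 and 0.36 on the log2 scale. DHCR7, which encodes the last reductase on the way to cholesterol, had the largest values at 0.68 and 0.66 (edgeR adjusted p = 2.91e-07 and 1.22e-06). MSMO1, a sterol demethylation enzyme, was at 0.56 and 0.49 (edgeR adjusted p = 1.10e-06 and 1.64e-05). With serum 1 of these 10 genes, HSD17B7, was called higher in each treatment (log2 0.47 and 0.32, edgeR adjusted p = 0.000124 and 0.00340), while DESeq2 called 4 of the 10 in DMSO-treated and 1 in dTAG-treated cells. CYP51A1, also of that list, had at most 2 counts in any library, and LRRD1 covers 30794 of its 30802 bp on the same strand, so it was not tested.

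Of 10 genes of fatty acid synthesis, 7 were called higher with dTAG without serum and 8 with serum, with medians of 0.34 and 0.33. ACSS2, which makes acetyl-CoA from acetate, was at 0.76 in both comparisons (edgeR adjusted p = 6.19e-08 and 3.92e-07), and SCD, a desaturase, was at 0.62 and 0.68 (edgeR adjusted p = 2.13e-05 and 9.00e-06). Of 13 tested genes of sterol sensing and uptake, 5 were called higher without serum and 4 with serum. DESeq2 called 5 and 5 of them higher, and 5 and 6 were higher at an unadjusted p under 0.05. Among them INSIG1, which holds the SREBP complex in the endoplasmic reticulum, was at 0.77 and 0.15 (edgeR adjusted p = 3.01e-08 and 0.352). INSIG1 was 1 of the 5 genes with a called interaction (log2 -0.63, edgeR adjusted p = 0.000827). The transcripts of the SREBPs, SREBF1 and SREBF2, were not called with dTAG. Without serum they were at 0.01 and 0.09 (edgeR adjusted p = 0.986 and 0.599). With serum SREBF1 was at 0.08 (edgeR adjusted p = 0.730). SREBF2 was at 0.23 with serum, just short of a call (edgeR adjusted p = 0.0567). For SREBF2, every dTAG-S30 library lay above every DMSO-S30 library.

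Products of the mevalonate chain also leave it for uses outside the sterol path. Of 15 genes tested for ubiquinone, dolichol and prenylation, 0 were called with dTAG by edgeR or DESeq2 at either serum level. In 1 of the dTAG comparisons 1 gene had an unadjusted p under 0.05. Their log2 values ran from -0.12 to 0.16 without serum and from -0.09 to 0.16 with serum. With serum 4 of the 15 were called lower and 0 higher in each treatment, where 2222 and 2000 of 13093 genes were. DESeq2 called 3 lower and 1 higher in DMSO-treated cells, and 1 lower and 1 higher in dTAG-treated cells. Scaling set the direction of many serum calls over all genes, as given above. GGPS1 of that list had at most 2 counts in any library, and ENSG00000285053 covers 15963 bp of it. Of 6 genes of the LXR and cholesterol efflux list, 0 were called with dTAG by edgeR or DESeq2. At an unadjusted p under 0.05, 2 were lower without serum, and 1 was higher and 1 lower with serum. ABCA1, a cholesterol exporter, was at -0.89 and -1.10 (edgeR adjusted p = 0.204 and 0.0844), with only 13 to 38 counts per library. Of the near relatives outside the chain, ACAT1, the mitochondrial thiolase, was called in no comparison, and IDI2 was too low to be tested.

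**Figure D4:**
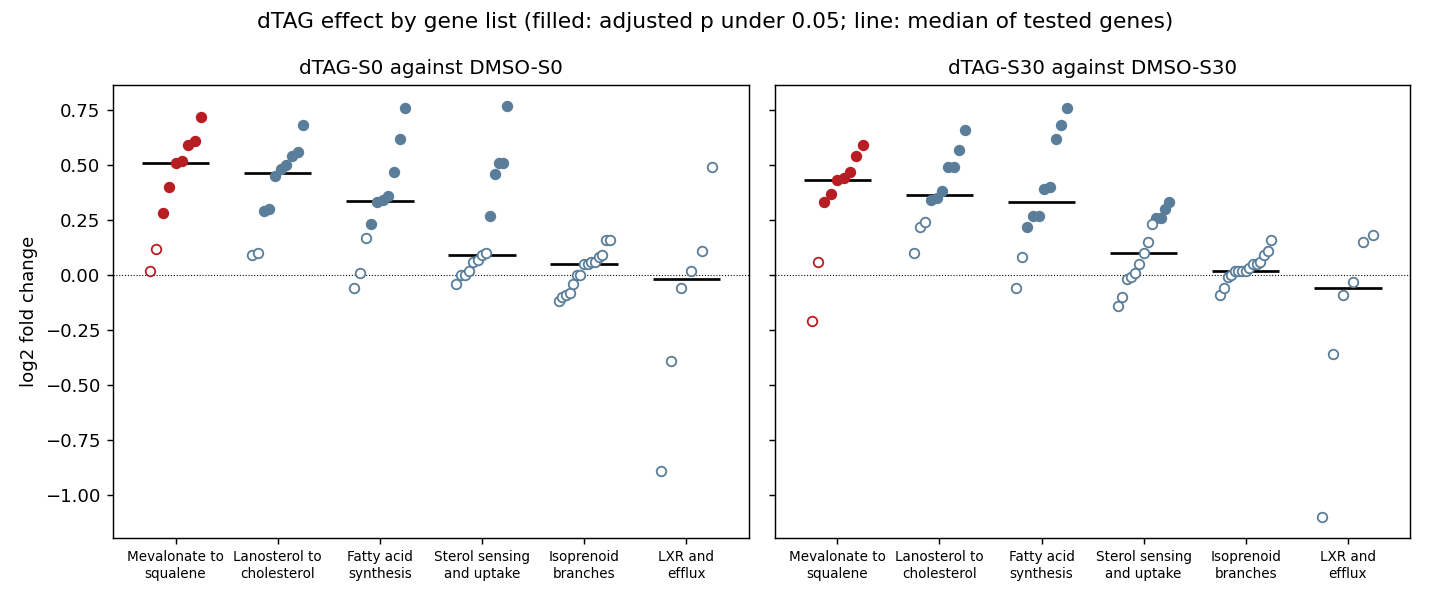
Fitted log2 fold change with dTAG without serum (left) and with serum (right) for the genes of 6 lists. Each point is a gene, filled points have an edgeR adjusted p under 0.05, and lines are medians. The 9 enzymes have medians of 0.51 and 0.43, the isoprenoid branches 0.05 and 0.02.

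Of the 57 genes called higher with dTAG at both serum levels, 7 were among the 9 enzymes, 7 in the lanosterol to cholesterol list, 7 in the fatty acid list and 4 in the sensing and uptake list. Each count of 7 is 12.3% of the 57 called genes, and the 4 are 7.02%. As shares of the tested genes of each list they are 77.8%, 70.0%, 70.0% and 30.8%, and the lists were drawn up with the earlier results known.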

How the data were processed

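RNA from 12 samples was spiked with ERCC RNA, depleted of ribosomal RNA and sequenced. Per the labels and the methods, the authors checked reads with FastQC 0.11.8, trimmed them with Trim Galore 0.6.4, mapped them to hg38 with STAR and counted them with featureCounts (Subread 1.6.3) over whole protein-coding genes, introns included, so unspliced RNA adds to each value. The deposited values are raw read counts, not normalized. The strand setting, the treatment of reads with several matches and the annotation version are not given in the sources used here.

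The 9 genes, the gene lists and the tests were chosen with earlier results of these data known. A gene was tested if 6 or more of the 12 libraries held at least 10 counts (13093 of 19901, with 69 of 92 ERCC transcripts passing), and 19802 genes had a symbol. Counts were scaled by the upper quartile, 1 factor of unwanted variation was taken from the spike-ins as in RUVg (the number the authors used is not given), and the 4 groups were fitted together with edgeR 4.0.16 under R 4.3.3 (two-sided quasi-likelihood F-test, Benjamini-Hochberg adjustment over all genes tested, called at an adjusted p under 0.05). CPM were taken on the scaled library sizes, and a prior count of 2 was added for the log2 CPM behind correlations. Overlaps of gene models were taken from the gene bounds in the count table, and GENCODE v44 was used only for the exons left out of the promoter stretches. The steps were tested on simulated data.

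Named genes were the 9 enzymes, TRIM28, at most 4 genes of each list with the smallest adjusted p, and the 5 genes with the highest correlation to the mean pattern of the 9. ACAT1, SREBF1, SREBF2, ABCA1, XBP1 and the genes too low to test are named to complete a list or a count. Alternatives were TMM scaling, ERCC library sizes, no factor or 2 factors, no count filter, DESeq2 1.42.0, the likelihood ratio test, only the 6 libraries compared, a replicate block, and leaving out each library. The fits with ERCC library sizes and by DESeq2 also left out the factor of unwanted variation. Some genes of the lists are not reported here.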

Additional observations from a re-analysis of the deposited data

How the results depend on the processing

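Single values of the 9 genes stayed on their side of the threshold with the same sign in 889 recomputed values, changed sign in 32, lost the call in 12 and gained it in 3. The calls that were lost or gained are given beside the genes. The number of the 9 called higher stayed at 5, 4, 7 and 7 (serum under DMSO, serum under dTAG, dTAG without serum, dTAG with serum) within 1 gene in every fit that left out a library, with ranges of 4 to 5, 3 to 4, 6 to 7 and 6 to 7, and 0 to 1 called lower with serum in dTAG-treated cells.

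Counts over all genes moved more. With ERCC library sizes they were 1766 and 1646 for serum in the 2 treatments, 76 and 66 for dTAG without and with serum (80.3% higher without serum, against 66.1% of 168 otherwise) and 3 for the interaction. With no count filter they were 275, 406 and 29 for both dTAG comparisons and the interaction, by DESeq2 258, 290 and 22, and by the likelihood ratio test 283, 266 and 10. On the 6 libraries compared, dTAG with serum gave 267 (159 otherwise), and the interaction gave 8 under TMM scaling and 9 with 2 factors. Leaving out a library gave 2621 to 4167, 2428 to 4108, 111 to 299, 95 to 258 and 5 to 14 genes, in the order of comparisons above with the interaction last. The lowest dTAG counts were those without dTAG-S0 replicate 3 (111) and without DMSO-S30 replicate 2 (95), and the highest those without dTAG-S30 replicate 3 (299) and DMSO-S0 replicate 1 (258). Causes were not tested.

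Sign changes concerned small values that were not called. For serum in DMSO-treated cells FDPS was 0.03 under TMM and 0.00 with ERCC sizes and DESeq2, and FDFT1 was 0.02, 0.03 and 0.03. FDPS with serum in dTAG-treated cells was 0.00 with 2 factors. PMVK with dTAG without serum was -0.02 without the factor, -0.04 without the filter and -0.01 by DESeq2, and the MVK interaction was -0.03 with ERCC sizes, -0.02 without the filter and -0.01 by DESeq2. Leaving out a library moved MVK between -0.02 and 0.05 with serum under DMSO, and under dTAG it moved ACAT2 between -0.05 and 0.04, MVK between -0.01 and 0.09 and FDPS between -0.03 and 0.04. It moved PMVK with dTAG without serum between -0.04 and 0.05, and the interactions of MVK and IDI1 between -0.03 and 0.08 and between -0.20 and 0.00.

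Same-numbered replicates did not deviate together (mean correlations of -0.04, 0.03 and 0.03, from -0.15 to 0.14). These values gave no sign of pairing by number, but cannot show whether same-numbered libraries were prepared together. With the replicate number as a block the 9 genes kept 5, 4, 7, 7 and 0 calls, and 3500, 3247, 173, 166 and 7 genes were called over all.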
